A study of Mus musculus with 15 samples.

Results

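Actinic keratosis lesions on the skin of placebo-treated mice were set against skin of placebo-treated mice that had not been exposed to ultraviolet light. Of the 15 libraries of the study, 3 lesional and 3 non-UV-exposed libraries enter this comparison. Its members are all 24027 gene symbols of the table whose header names these groups, without the 25 that spreadsheet software had changed to dates. Every group consisted of female SKH1 mice, a hairless but immunocompetent outbred strain. Mice of 6 to 8 weeks received ultraviolet B at 500 J/m2 on 5 days per week for 10 weeks to raise the lesions. Placebo cream, 0.25 g on 5 days per week, was applied in both groups compared here, so neither is free of vehicle. The labels do not say whether the non-UV-exposed skin came from shielded sites of the irradiated animals or from other mice. The titles number the libraries Control 1 to 3 in both groups without saying what a shared number stands for, and whether the deposited test used it is not stated. The headers call that group back, and body site, exposure and lesion cannot be told apart. Whether each library stands for its own mouse is not stated, and p-values cover the spread among libraries only, part of which may be technical.

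The epidermis renews itself from basal keratinocytes, which carry keratins 5 and 14 and, once they leave the basement membrane, switch to keratins 1 and 10 and then to the proteins of the cornified envelope. Wounded, inflamed and neoplastic epidermis replaces part of this sequence with keratins 6, 16 and 17, small proline-rich proteins and antimicrobial proteins. Actinic keratosis is the intraepidermal neoplasm of sun-damaged skin that can precede squamous cell carcinoma, and it holds dividing keratinocytes above the basal layer.

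By the test of the authors' deposited table, 2785 of 15201 genes differed between lesional and non-UV-exposed skin at an adjusted p under 0.05, which is 18.3% of the genes tested. Of these, 1543 genes (10.2%) were higher and 1242 (8.17%) were lower in lesions. These percentages are the background against which each gene group below is read. Rose and fell are used only of genes that passed this test, and values are log2 fold changes, lesional over non-UV-exposed skin ± SE. The median log2 fold change was 1.18 among genes that rose, -0.95 among genes that fell and 0.08 over all genes tested, with a median SE of 0.34. The upward majority, 55.4% of the called genes, depended on that centre: with every fold change centred on the median, 43.6% of the called genes were higher. A log2 fold change above 1 in size was supported beyond its SE for 80 genes (0.526%), 61 of them higher and 19 lower. No value per library is in the files used here, so depth, the level of a gene in each group and the number of libraries that show a change are unknown. The labelled tissue could be checked only so far that the keratinocyte genes Krt5, Krt14, Krt1 and Krt10 and the fibroblast genes Col1a1 and Col1a2 were all among the genes with enough signal to be tested. A fold change with an SE above 1 may rest on few reads in a group. Where a list is followed by a second count, the same Wald statistic was read against a t distribution with 10 degrees of freedom, under which 417 genes were called. That number assumes that all 15 libraries were fitted together in 5 groups, since the model formula is not stated. With the 4 degrees of freedom of the 6 libraries alone, added after the data were seen, 0 genes were called, and 2389 had an unadjusted p under 0.05.

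**Figure D1:**
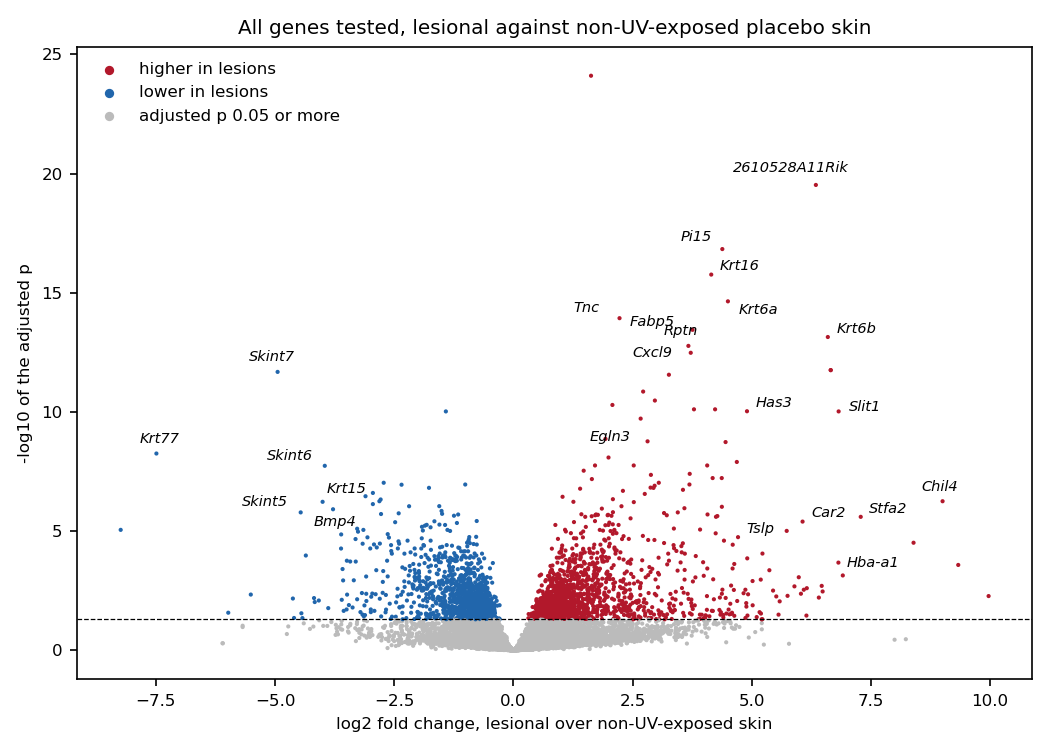
Each point is 1 of 15201 genes, with the log2 fold change (lesional over non-UV-exposed skin) on the x axis and -log10 of the deposited adjusted p on the y axis; the dashed line marks an adjusted p of 0.05. Points in red (1543 genes) were higher and points in blue (1242 genes) lower in lesions.

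Calls varied with the length of the transcript. Among 5 equal groups of genes ordered by transcript length, the shortest had 15.2% of genes higher and 3.32% lower, and the longest had 6.29% higher and 16.1% lower. The median log2 fold change was 0.34 in the shortest and -0.11 in the longest group. In non-lesional over non-UV-exposed skin, a comparison that shares the non-UV-exposed libraries, the same medians were 0.04 and -0.07. With fold changes centred within bins of transcript length, an alternative added after the data were seen, 2376 genes were called and 45.2% of them were higher. The part of length in any single result was not tested, and the length-centred median is given beside several groups of short genes.

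**Figure D2:**
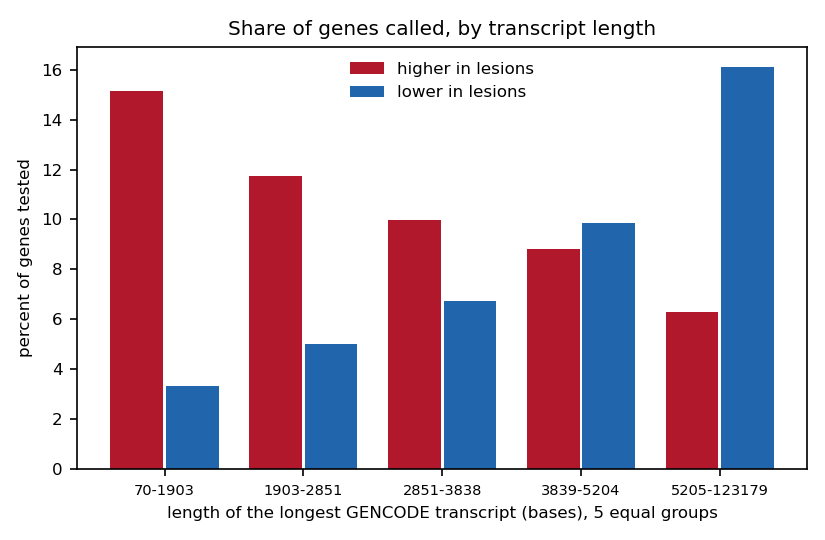
Bars give the percent of tested genes called higher (red) or lower (blue) in lesions in 5 equal groups of transcript length in bases, as annotated by GENCODE. The share called higher falls from 15.2% to 6.29% and the share called lower rises from 3.32% to 16.1% from the shortest to the longest transcripts.

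Keratins of wounded epidermis and antimicrobial alarmins stood far above unexposed skin. Of 18 tested members of this list 10 rose and 8 did not pass, with a median log2 fold change of 2.62 (2.23 centred by length), and 5 were called with the t distribution. In the authors' deposited table Krt6b was 6.60 ± 0.78 (adjusted p = 7.16e-14), Krt6a 4.50 ± 0.51 (adjusted p = 2.28e-15), Krt16 4.15 ± 0.45 (adjusted p = 1.72e-16) and Krt17 2.08 ± 0.28 (adjusted p = 5.07e-11). Krt6b was thus 96.7-fold and Krt6a 22.6-fold higher on the linear scale. Repetin, Rptn, a cornified cell protein of the same list, was 3.67 ± 0.44 (adjusted p = 1.69e-13) per the authors' deposited table. Non-lesional skin, over the same unexposed libraries, had Rptn at 4.49, Krt6b at 5.10, Krt16 at 3.70 and Krt6a at 2.69 in the authors' deposited table. The list's median in non-lesional skin was 1.08, with 5 of 17 tested members called higher. The S100 subunits S100a8 and S100a9, which form the antimicrobial protein calprotectin of keratinocytes and neutrophils, were 4.69 ± 1.39 (adjusted p = 0.0085) and 4.62 ± 1.23 (adjusted p = 0.00292) per the authors' deposited table. Krt75 and Krt79, of the companion layer and the hair canal, stood at -0.55 ± 0.96 (adjusted p = 0.738) and 0.46 ± 0.61 (adjusted p = 0.65) there and did not pass.

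The keratins of resting epidermis showed another picture. In the authors' deposited table Krt5 stood at 0.02 ± 0.36 (adjusted p = 0.976) and Krt14, its partner in the basal layer, at 0.95 ± 0.35 (adjusted p = 0.0382). Krt1 stood at -0.33 ± 0.38 (adjusted p = 0.583) and Krt10 at -0.76 ± 0.57 (adjusted p = 0.363) per the authors' deposited table, so the main suprabasal pair did not pass the test. Krt15, the keratin of resting basal and follicle stem cells, fell, at -2.78 ± 0.46 (adjusted p = 4.68e-07), and Krt77, an epidermal keratin, fell, at -7.49 ± 1.10 (adjusted p = 5.53e-09) per the authors' deposited table. Krt78, a further suprabasal keratin, fell, at -1.46 ± 0.44 (adjusted p = 0.0104) there. The remaining suprabasal and simple epithelial keratins did not pass, and they ran in the authors' deposited table from 5.21 ± 2.50 for Krt13 (adjusted p = 0.131) to -2.36 ± 1.68 for Krt19 (adjusted p = 0.34). Krt2, Krt4, Krt7, Krt8, Krt18, Krt23, Krt24 and Krt80 stood between them, at -1.84, -0.94, -0.14, -0.96, -1.74, -0.59, 1.06 and -0.52 per the authors' deposited table. Of 16 basal keratinocyte and adhesion genes 1 rose and 3 fell, near the background. Besides Krt15 these were the hemidesmosomal linker dystonin, Dst, at -1.82 ± 0.33 (adjusted p = 5.43e-06), and the hemidesmosomal collagen Col17a1 at -1.0 ± 0.38 (adjusted p = 0.0474) per the authors' deposited table. The epidermal master regulator Trp63 stood at -0.16 ± 0.22 (adjusted p = 0.67) there.

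The cornified envelope split by gene family. Of 18 tested small proline-rich and filaggrin-type genes 10 rose and 3 fell (6 and 1 called with the t distribution), with a median of 3.90 (3.46 centred by length). All members that rose belong to the Sprr family, whose short proline-rich proteins cross-link the envelope. Sprr2a1 and Sprr2a2 share a single value per the authors' deposited table, 6.66 ± 0.83 (adjusted p = 1.75e-12), and reads shared by these near-identical copies leave each of them uncertain. Sprr1b was 3.69 ± 0.59 (adjusted p = 1.10e-07) and Sprr1a was 3.45 ± 0.60 (adjusted p = 1.63e-06) per the authors' deposited table. The members that fell were Flg2, Lor and Hrnr, which encode structural proteins of the granular layer. Flg2, named after its value was seen, stood at -2.92 ± 0.58 (adjusted p = 3.61e-05) per the authors' deposited table and loricrin, Lor, at -1.61 ± 0.49 (adjusted p = 0.0108). Hornerin, Hrnr, named after its value was seen, stood at -1.29 ± 0.40 (adjusted p = 0.014) there. Flg was not analysed here. Involucrin, Ivl, also chosen after its value was seen, stood at -0.36 ± 0.55 (adjusted p = 0.697) per the authors' deposited table and did not pass.

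Late cornified envelope genes split as well, between neighbouring blocks of chromosome 3. All 5 tested Lce3 genes rose, from 4.16 for Lce3e to 6.15 for Lce3f in the authors' deposited table, and they are neighbours among the genes tested, at chr3:92925287-92993426 of GRCm38. Their SEs are wide: Lce3c was 5.19 ± 1.27 (adjusted p = 0.00108) and Lce3d 4.92 ± 1.36 (adjusted p = 0.00445) per the authors' deposited table, and 0 of 20 members of the whole list were called higher with the t distribution. The Lce1 genes stood near or under 0, from 0.78 ± 0.71 for Lce1k (adjusted p = 0.476) to -2.73 ± 0.63 for Lce1m (adjusted p = 0.000472) per the authors' deposited table, and Lce1m was the Lce1 gene that fell. In non-lesional over non-UV-exposed skin, with the same unexposed libraries, the whole list had a median of 1.15, against -0.32 in lesions. That lesional median was -0.76 centred by length and -0.66 among members tested in every table. Lce1h, for example, stood at 1.55 in non-lesional and at -0.04 in lesional skin in the authors' deposited tables. A run of 5 Sprr2 genes adjacent among those tested, Sprr2d to Sprr2i at chr3:92339140-92409271, rose as well, with log2 fold changes of 4.19 to 5.22.

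Promoters of the Sprr family are shown because many genes of their list hold the same short motif. RefSeq promoters of GRCm38.p6, from 250 bases before to 50 after the start of transcription, were searched on both strands. Here and below, a gene counts once and holds a motif if any of its promoters does. Shares of all promoters count each of 32851 promoters singly, which is an unlike measure. The AP-1 site TGANTCA, bound by Fos and Jun factors, was found in 13 of 17 genes with a promoter of the small proline-rich and filaggrin-type list. These are tested members, whether called or not. It was found in 6.99% of all tested genes with a promoter and in 8.98% of those called higher. Of all promoters of that length, 7.81% held it. The TATA box TATAAA was found in 12 of these 17, against 1125 of the 11249 tested genes with a promoter. Capitals mark the AP-1 site with up to 30 bases on each side, 5′ to 3′ on the strand of the gene, at chr3:92438854-92438920 (minus) for Sprr1b, chr3:92485961-92486027 (minus) for Sprr1a and chr3:92385457-92385523 (plus) for Sprr2h. Here and below, where the 250 bases before the start held several matches, only the match nearest the start is in capitals. The Sprr1a window opens with a further AP-1 match in small letters.
Sprr1b: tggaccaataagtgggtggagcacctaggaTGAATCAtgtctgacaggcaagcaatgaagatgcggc
Sprr1a: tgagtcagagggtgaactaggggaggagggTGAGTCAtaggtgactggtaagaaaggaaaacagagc
Sprr2h: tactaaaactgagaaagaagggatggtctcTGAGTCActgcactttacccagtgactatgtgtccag
A match is a run of letters and no measure of binding. Of the AP-1 factor genes themselves 2 of 16 rose and 2 fell (2 and 0 called with the t distribution), near the background, with a median of 0.00 that turned to -0.08 once centred. Junb rose, at 1.57 ± 0.35 (adjusted p = 0.000348), while Atf3 stood at -1.62 ± 0.59 (adjusted p = 0.0379) and Maf at -0.53 ± 0.16 (adjusted p = 0.00737) per the authors' deposited table.

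**Figure D3:**
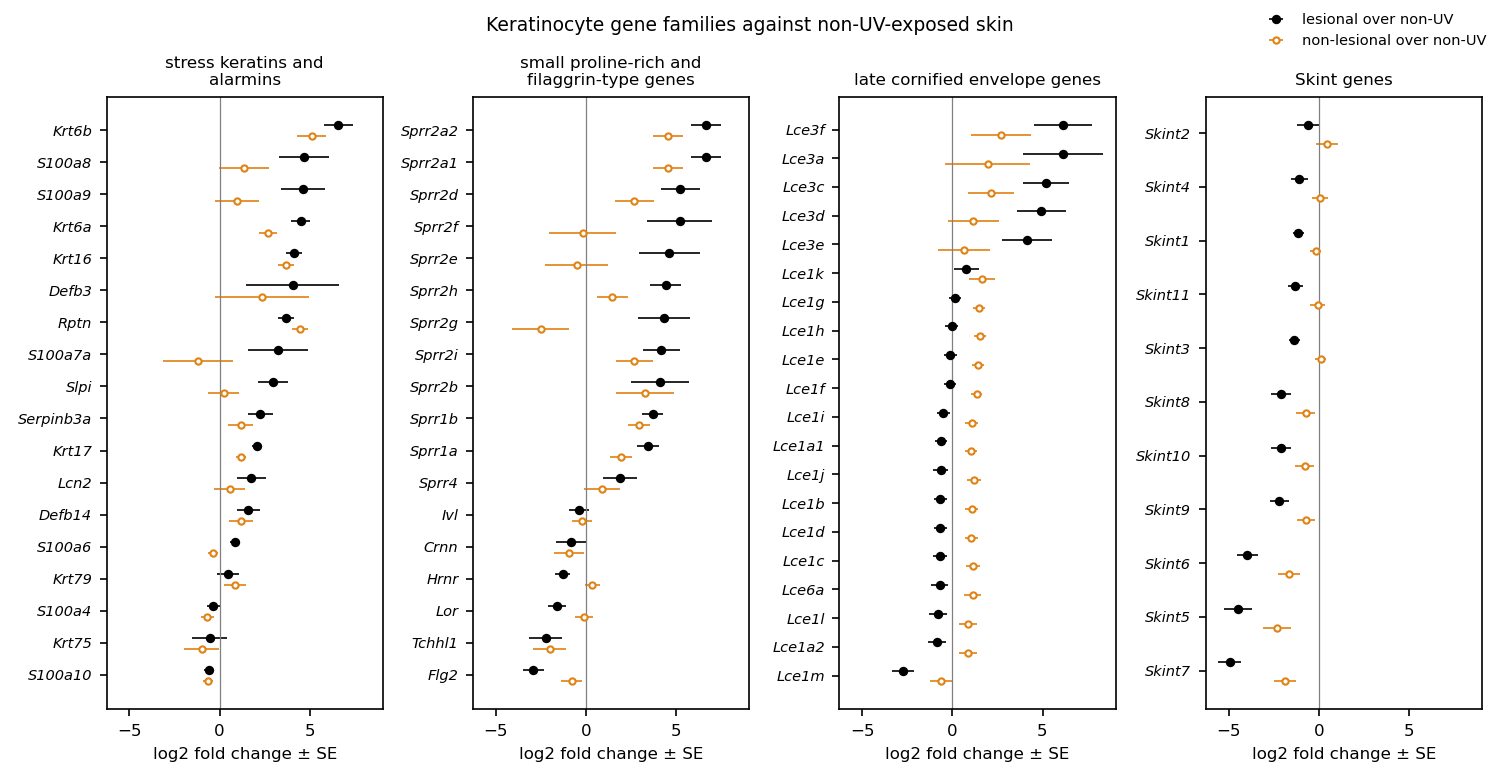
Points give the log2 fold change ± SE of each tested member of 4 keratinocyte gene lists, filled for lesional and open for non-lesional skin, both over the same non-UV-exposed libraries. Krt6b and the Sprr2 genes lie far to the right in lesions, the Lce3 genes lie apart from the Lce1 genes, and Skint7, Skint5 and Skint6 lie furthest to the left in their panel.

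Proteases of the outer epidermis and their inhibitors were mostly higher where they differed. Of 23 tested members 12 rose and 2 fell (7 and 0 called with the t distribution), with a median of 0.89 that was 0.43 among members tested in every table. Kallikreins are the serine proteases that cut desmosomes during shedding: Klk13 was 4.37 ± 0.68 (adjusted p = 5.93e-08), Klk6 2.52 ± 0.38 (adjusted p = 1.75e-08) and Klk10 2.88 ± 0.46 (adjusted p = 1.49e-07) per the authors' deposited table. Their values in non-lesional skin, over the same unexposed libraries, were 2.52, 2.59 and 0.65 in the authors' deposited table. The stefins inhibit cysteine proteases, and Stfa2, one of the largest differences of the comparison, was 7.29 ± 1.29 (adjusted p = 2.50e-06) while Stfa3 was 1.65 ± 0.26 (adjusted p = 6.53e-08) per the authors' deposited table. Stfa2 and Stfa3 lie in a run of 6 genes, adjacent among those tested, that all rose, Csta1 to Stfa3 at chr16:36119946-36455392. Klk5 and Klk7 are further shedding proteases, chosen with their values in view, and stood at -0.11 ± 0.35 (adjusted p = 0.863) and 0.40 ± 0.31 (adjusted p = 0.389) per the authors' deposited table and did not pass. Tmprss11bnl, a gene outside the list whose symbol refers to a transmembrane serine protease, was 5.73 ± 1.07 (adjusted p = 9.74e-06) there.

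Desmosomal genes went both ways, with 5 of 16 higher and 4 lower (2 and 0 called with the t distribution). Desmocollin 2, Dsc2, a cadherin found in many epithelia, rose, at 3.70 ± 0.57 (adjusted p = 3.94e-08) per the authors' deposited table. Its value in non-lesional skin was 0.25 over the same unexposed libraries in the authors' deposited table. Dsg1b rose, at 1.28 ± 0.29 (adjusted p = 0.000394), and Dsg2 and Dsg4, the latter a cadherin of the hair shaft and granular layer, stood at -1.25 ± 0.30 (adjusted p = 0.00107) and -3.35 ± 0.82 (adjusted p = 0.00115) per the authors' deposited table. Of 24 genes of barrier lipids 5 rose and 3 fell, and the t distribution called 0 and 0. Elovl4, which makes the very long fatty acids of skin ceramides, rose, at 1.35 ± 0.33 (adjusted p = 0.00109), and Aloxe3 and Sptlc3, a lipoxygenase and a subunit of the first ceramide enzyme, fell, at -1.49 ± 0.37 (adjusted p = 0.00128) and -1.02 ± 0.30 (adjusted p = 0.00707) per the authors' deposited table.

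Skint genes, a rodent family of immunoglobulin-like proteins of thymus and keratinocytes whose founding member lets epidermal gamma-delta T cells mature, were lower. Of 11 tested members 9 fell and 2 did not pass, with a median of -2.09 (3 called with the t distribution). In the authors' deposited table Skint7 stood at -4.95 ± 0.62 (adjusted p = 2.08e-12), Skint5 at -4.46 ± 0.77 (adjusted p = 1.63e-06), Skint6 at -3.96 ± 0.60 (adjusted p = 1.81e-08) and Skint9 at -2.20 ± 0.52 (adjusted p = 0.000717). On the linear scale Skint7 was 30.8-fold lower. Skint2 and Skint4, which did not pass, stood at -0.59 ± 0.63 and -1.08 ± 0.46 per the authors' deposited table. The list's median was -0.72 in non-lesional skin over the same unexposed libraries. Among 21 T and NK cell genes 3 rose and 2 fell (0 and 0 called with the t distribution). These shares, 14.3% and 9.52%, were near the background of 10.2% and 8.17%. Cd8a was 2.66 ± 0.69 (adjusted p = 0.00247) and Icos 2.24 ± 0.58 (adjusted p = 0.00215) per the authors' deposited table. The T cell receptor subunits Cd3e and Cd3g were -1.48 ± 0.44 (adjusted p = 0.00862) and -1.52 ± 0.43 (adjusted p = 0.00631) there. Foxp3, the factor of regulatory T cells, was named after its value was seen and stood at 3.29 ± 1.0 (adjusted p = 0.0108) there. Cd8a, Icos, Cd3e and Cd3g stood at 2.94, 2.86, -1.20 and -0.86 in non-lesional skin over the same unexposed libraries, per the authors' deposited table. In whole skin, fewer cells of a type and less RNA per cell cannot be told apart.

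Interferon-induced genes had the largest share of higher members among the immune lists. Of 42 tested members 29 rose and 13 did not pass, with a median of 1.57 (10 called with the t distribution). The antiviral synthetases Oas2 and Oasl2 were 4.07 ± 0.71 (adjusted p = 1.99e-06) and 2.46 ± 0.44 (adjusted p = 2.90e-06), and the guanosine triphosphatase Igtp was 2.21 ± 0.40 (adjusted p = 5.49e-06) per the authors' deposited table. The interferon-induced chemokines Cxcl9 and Cxcl10, which attract T cells, were 3.72 ± 0.45 (adjusted p = 3.28e-13) and 4.6 ± 0.91 (adjusted p = 3.70e-05) per the authors' deposited table. Non-lesional skin, over the same unexposed libraries, had a median of 1.35 for this list, with 17 members called higher where 235 of 14124 genes (1.66%) were called in all. There Igtp was 2.49 and Oas2 2.76 in the authors' deposited table, and lesional and non-lesional skin were not tested against each other here. Of 22 genes of antigen presentation 9 rose (1 called with the t distribution), led by the peptide-loading factor Tapbp at 0.88 ± 0.16 (adjusted p = 5.49e-06) and the class II gene H2-Ab1 at 1.74 ± 0.46 (adjusted p = 0.00284) per the authors' deposited table.

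Promoters of this list are shown because most of its genes with a promoter hold the interferon-stimulated response element GAAANNGAAA, to which IRF factors bind. It was present on either strand in 17 of 27 interferon-induced genes with a promoter (63.0%) and in 3.69% of tested genes with a promoter. Of all promoters of this length, counted singly, 3.44% held it. Among genes with a promoter, 5.96% of those called higher and 3.24% of those called lower held it. Capitals mark the element in Igtp at chr11:58199492-58199555, Gbp7 at chr3:142530253-142530322 and Ifit1 at chr19:34640774-34640843, all on the plus strand of GRCm38.p6.
Igtp: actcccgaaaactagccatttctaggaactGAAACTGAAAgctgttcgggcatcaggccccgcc
Gbp7: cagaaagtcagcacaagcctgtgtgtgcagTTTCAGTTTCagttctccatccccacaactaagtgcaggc
Ifit1: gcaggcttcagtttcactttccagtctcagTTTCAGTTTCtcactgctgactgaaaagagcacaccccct
The marked element starts 34 bases before the start of transcription in Igtp, 53 in Gbp7 and 85 in Ifit1, and in the last pair it is read from the opposite strand. The Ifit1 window holds a further match in small letters before the marked element. Gbp7 and Ifit1 stood at 1.83 ± 0.36 (adjusted p = 3.67e-05) and 3.83 ± 0.80 (adjusted p = 0.000111) per the authors' deposited table, the 2 named after their values were seen.

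Epithelial alarmins and cytokines of the IL-1 family went both ways, with 5 of 19 higher and 3 lower (1 and 2 called with the t distribution). Thymic stromal lymphopoietin, Tslp, a keratinocyte cytokine that activates type 2 immunity, rose, at 4.71 ± 0.90 (adjusted p = 1.78e-05), against 0.02 in non-lesional skin, in the authors' deposited table. The IL-1 receptor genes fell: Il1r1 stood at -1.29 ± 0.26 (adjusted p = 4.07e-05) and the decoy receptor Il1r2 at -2.41 ± 0.42 (adjusted p = 1.78e-06) per the authors' deposited table, and the antagonist Il1rn at -0.95 ± 0.23 (adjusted p = 0.00103). Il1b, named after its value was seen, rose, at 2.31 ± 0.74 (adjusted p = 0.0158) per the authors' deposited table. The alarmin Il33 stood at 1.26 ± 0.50 (adjusted p = 0.0609) there and did not pass. The inducible cyclooxygenase Ptgs2, which starts prostaglandin synthesis, rose, at 3.66 ± 1.0 (adjusted p = 0.00424), and Ptges, the enzyme downstream of it, at 1.18 ± 0.30 (adjusted p = 0.00183) per the authors' deposited table. Of 21 genes of that pathway 5 rose and 2 fell (0 and 0 called with the t distribution), and the receptor gene Ptger4, named after its value was seen, stood at -0.95 ± 0.29 (adjusted p = 0.0123) per the authors' deposited table. Chemokines other than those of the interferon response included Ccl8 at 3.59 ± 0.88 (adjusted p = 0.00107) per the authors' deposited table. Of 39 chemokine genes 5 rose and 1 fell (2 and 0 called with the t distribution), and the share that rose was near the background. Their median of 1.17 was 0.43 among members tested in every table.

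A few markers of macrophages and of dendritic cells rose, and so did 4 of 7 neutrophil genes. Of 27 macrophage and monocyte genes 3 rose, near the background, and the median of 0.24 was -0.22 among members tested in every table and 0.06 centred by length. The t distribution called 1 macrophage, 1 neutrophil and 1 dendritic cell member. Chil4, a chitinase-like lectin, had the largest fold change of the rule-named genes at 9.0 ± 1.5 (adjusted p = 5.55e-07), and arginase 1, Arg1, which macrophages and stressed keratinocytes express, was 3.05 ± 0.72 (adjusted p = 0.000659) per the authors' deposited table. Chil4 stood at 8.59 in non-lesional skin in the authors' deposited table. The macrophage and monocyte list as a whole had a non-lesional median of -1.09, with 1 of 23 tested members called higher and 5 lower. Of 7 neutrophil genes 4 rose, which are S100a8, S100a9, Mmp9 and Cxcr2, and the former pair is also made by keratinocytes. A further 6 neutrophil genes of the table, Mmp8, Elane, Camp, Ngp, Ltf and Retnlg, were not tested. Cxcr2, a neutrophil chemokine receptor, was 1.52 ± 0.50 (adjusted p = 0.0205) and Mmp9, the gelatinase, was 4.6 ± 1.04 (adjusted p = 0.000368) per the authors' deposited table. Of 17 Langerhans and dendritic cell genes 3 rose and 1 fell, with the actin bundler Fscn1 of mature dendritic cells at 2.02 ± 0.40 (adjusted p = 3.37e-05) per the authors' deposited table. The member that fell, Irf4, stood at -1.70 ± 0.60 (adjusted p = 0.03) per the authors' deposited table. Mast cell and eosinophil genes had 0 of 11 called by the DESeq2 test or with the t distribution, and 2 at an unadjusted p under 0.05.

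Genes of cell division rose broadly and by modest amounts. Of 32 mitosis genes 22 rose, with a median of 1.09, and of 34 DNA replication genes 16 rose, with a median of 0.86. The t distribution called 1 and 1 of them, so these calls rest on the normal tail of the test. Survivin, Birc5, which guards chromosome separation, was 1.70 ± 0.38 (adjusted p = 0.000322) and the mitotic kinase Plk1 1.72 ± 0.41 (adjusted p = 0.000865) per the authors' deposited table. Rrm2, the regulated subunit of ribonucleotide reductase, was 2.16 ± 0.41 (adjusted p = 1.21e-05) and the helicase subunit Mcm4 1.55 ± 0.39 (adjusted p = 0.00171) per the authors' deposited table. Mki67, the usual histological marker of proliferation, stood at 0.52 ± 0.29 (adjusted p = 0.195) there and did not pass. In non-lesional skin, over the same unexposed libraries, the medians of the lists were 0.50 and 0.22. Among G1 regulators the tumour suppressor locus Cdkn2a stood out at 4.07 ± 0.61 (adjusted p = 1.75e-08) per the authors' deposited table, against 2.50 in non-lesional skin. The locus encodes a pair of cell cycle inhibitors, which the table does not separate. Cyclin genes differed in direction, with Ccnd3 at 0.96 ± 0.20 (adjusted p = 0.00013) and Ccnd2 at -1.98 ± 0.46 (adjusted p = 0.000472) per the authors' deposited table.

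Mitosis promoters are shown for the cell cycle homology region TTTGAA, through which the DREAM complex represses such genes in resting cells. It was found on either strand in 20 of 26 genes of the list with a promoter, against 14.7% of tested genes with a promoter. Of all promoters of this length, counted singly, 17.9% held it. The CCAAT box CCAAT was found in 21 of these 26, against 42.1% of tested genes with a promoter. Capitals mark the region, read here from the opposite strand, in Top2a at chr11:99024190-99024242 (minus), Kif2c at chr4:117178840-117178905 (minus) and Ube2c at chr2:164769870-164769928 (plus).
Top2a: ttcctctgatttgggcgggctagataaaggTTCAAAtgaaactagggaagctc
Kif2c: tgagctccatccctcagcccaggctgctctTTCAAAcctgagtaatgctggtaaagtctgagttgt
Ube2c: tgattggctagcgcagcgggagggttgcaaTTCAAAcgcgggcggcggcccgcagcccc
These 3 genes, chosen with their values in view, stood at 1.01 ± 0.28 (adjusted p = 0.00386), 1.30 ± 0.39 (adjusted p = 0.0103) and 1.43 ± 0.43 (adjusted p = 0.0106) per the authors' deposited table.

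Cytosolic ribosomal protein genes shared a small upward difference. Of 59 members 21 rose and 38 did not pass, with a median of 0.58 and values from 0.22 to 3.95, and 0 were called with the t distribution. Their transcripts are short, with a median length of 1120 bases, and centred by length their median was 0.20. Rpl8 was 0.86 ± 0.23 (adjusted p = 0.0027) and Rps13 0.83 ± 0.22 (adjusted p = 0.00325) per the authors' deposited table. Of 14 genes often used as references 7 rose (0 called with the t distribution) and 12 were positive, with a median of 0.54 (0.35 centred by length), and Actb stood at 0.58 ± 0.17 (adjusted p = 0.00657) and Gapdh at 2.11 ± 0.79 (adjusted p = 0.0443) per the authors' deposited table.

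Several ligands of the EGF receptor family rose, and none of the receptor genes passed the test. In this pathway a ligand shed from the cell surface activates receptor kinases that drive keratinocyte growth through ERK. Of 16 tested members 5 rose and 1 fell, with a median of 0.80 (2 and 0 called with the t distribution), or 0.39 among members tested in every table. In the authors' deposited table neuregulin 1, Nrg1, was 3.36 ± 0.67 (adjusted p = 3.85e-05), epiregulin, Ereg, 2.47 ± 0.53 (adjusted p = 0.000155), heparin-binding EGF, Hbegf, 2.30 ± 0.57 (adjusted p = 0.00131), amphiregulin, Areg, 1.98 ± 0.56 (adjusted p = 0.00563) and Tgfa 1.73 ± 0.44 (adjusted p = 0.00163). Betacellulin, Btc, was the ligand that fell, at -2.17 ± 0.50 (adjusted p = 0.000456) per the authors' deposited table. Egfr itself stood at -0.01 ± 0.17 (adjusted p = 0.968), with Erbb2 at -0.47 ± 0.24 (adjusted p = 0.165) and Erbb3 at 0.00 ± 0.28 (adjusted p = 1) per the authors' deposited table. The other members, Erbb4, Nrg4, Egf, Epgn, Errfi1, Lrig1 and Nrg2, stood at 2.25, 1.56, 0.94, 0.66, 0.13, -0.71 and -1.28 in the authors' deposited table and did not pass. Among 20 genes induced by ERK or acting back on it 7 rose and 2 fell (0 and 1 called with the t distribution). Phlda1 was 2.52 ± 0.60 (adjusted p = 0.00084) and Ier3 2.00 ± 0.48 (adjusted p = 0.000989), and the inhibitors Spry1 and Spred2 were -1.09 ± 0.29 (adjusted p = 0.00303) and -1.35 ± 0.30 (adjusted p = 0.000282) per the authors' deposited table. The median of that list, 0.54, was -0.09 among members tested in every table.

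Genes of WNT signalling, which maintains hair follicles and basal epidermis, were lower where they differed. Of 38 tested members 9 fell, with a median of -0.53 that was -0.26 among members tested in every table. Axin2, a feedback inhibitor and standard target, fell, at -1.90 ± 0.35 (adjusted p = 9.40e-06), its fellow target Apcdd1 at -2.02 ± 0.49 (adjusted p = 0.000896) and the ubiquitin ligase Znrf3 at -0.91 ± 0.22 (adjusted p = 0.00128) per the authors' deposited table. The ligand gene Wnt3 stood at -1.39 ± 0.34 (adjusted p = 0.00111) there. Ctnnb1, which encodes beta-catenin, stood at 0.11 ± 0.15 (adjusted p = 0.653) and Lef1 at -1.69 ± 0.70 (adjusted p = 0.0727) per the authors' deposited table, and neither passed. The t distribution called 1 member, Axin2. Hair shaft and root sheath genes, markers of a structure rich in WNT signalling, had a median of -2.38, and their part in this result was not tested. Of 19 Notch genes 3 rose and 3 fell (0 and 0 called with the t distribution): Notch1, the receptor that limits squamous tumours, fell, at -1.16 ± 0.32 (adjusted p = 0.00457), and the vessel ligand Dll4 rose, at 4.88 ± 1.48 (adjusted p = 0.0104) per the authors' deposited table. Among Hedgehog genes 1 of 13 rose and 1 fell, near the background (0 and 1 called with the t distribution). These were Gli2 at 1.12 ± 0.34 (adjusted p = 0.0103) and Cdon at -1.57 ± 0.33 (adjusted p = 0.000111) per the authors' deposited table. Targets of YAP and TAZ had 0 of 14 called by DESeq2 or with the t distribution and 3 at an unadjusted p under 0.05. Of 28 p53 target and apoptosis genes 1 rose and 5 fell (0 and 0 called with the t distribution), among them Bcl2 at -1.32 ± 0.33 (adjusted p = 0.0013) and Mdm4 at -1.04 ± 0.26 (adjusted p = 0.00158), and Trp53 itself stood at 0.46 ± 0.30 (adjusted p = 0.296) per the authors' deposited table.

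Genes of glycolysis and of the response to low oxygen had the largest share of higher members among the 55 lists. Of 31 tested members 22 rose and 9 did not pass, with a median of 1.87 and 12 called with the t distribution. Egln3, an oxygen-sensing hydroxylase that the hypoxia factor itself induces, was 2.81 ± 0.40 (adjusted p = 1.70e-09), the glycolytic enzyme Eno1 2.06 ± 0.36 (adjusted p = 2.26e-06) and the lactate transporter Slc16a1 1.73 ± 0.30 (adjusted p = 1.99e-06) per the authors' deposited table. Hif1a, the oxygen-regulated subunit of that factor, rose, at 2.12 ± 0.43 (adjusted p = 5.49e-05), and the vessel growth factor Vegfa at 2.08 ± 0.38 (adjusted p = 5.18e-06) per the authors' deposited table. Carbonic anhydrase 9, Car9, and Car2, a gene outside the list, both of which buffer acid, were 3.59 ± 0.82 (adjusted p = 0.000424) and 6.07 ± 1.09 (adjusted p = 3.96e-06) per the authors' deposited table. Car9 was named after its value was seen. In non-lesional skin the list had a median of 0.60 over the same unexposed libraries. Skeletal muscle also expresses many glycolytic genes, and its markers were positive in 25 of 25 cases with a median of 1.87, though 0 were called by DESeq2 or with the t distribution and 0 had an unadjusted p under 0.05. In non-lesional skin the muscle median was 1.73. The part of muscle in the glycolytic result was not tested.

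The core of the hypoxia response element, ACGTG, was found on either strand in 20 of 29 genes of this list with a promoter. It was found in 27.8% of tested genes with a promoter and, counted singly, in 19.6% of all promoters of this length. Capitals mark it, with up to 30 bases on each side, in Egln3 at chr12:54204069-54204124 (minus), Slc16a1 at chr3:104638435-104638499 (plus) and Hif1a at chr12:73907767-73907831 (plus) of GRCm38.p6.
Egln3: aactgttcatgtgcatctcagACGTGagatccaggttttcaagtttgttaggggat
Slc16a1: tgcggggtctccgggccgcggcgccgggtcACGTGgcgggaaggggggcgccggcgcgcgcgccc
Hif1a: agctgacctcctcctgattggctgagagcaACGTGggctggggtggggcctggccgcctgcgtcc
The motif starts 229 bases before the start of transcription in Egln3, 199 in Slc16a1 and 70 in Hif1a.

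Many genes of cholesterol and of fatty acid synthesis rose. Of 25 cholesterol synthesis genes 17 rose and 1 fell, with a median of 0.96 (6 called with the t distribution). Acat2, Idi1 and Msmo1, enzymes from the first to the late steps of the pathway, were 1.93 ± 0.27 (adjusted p = 1.34e-09), 1.99 ± 0.30 (adjusted p = 8.13e-09) and 1.71 ± 0.26 (adjusted p = 1.75e-08) per the authors' deposited table. The member that fell, the cholesterol exporter Abcg1, was named after its value was seen and stood at -0.83 ± 0.28 (adjusted p = 0.0225) per the authors' deposited table. Of 31 sebaceous and fatty acid synthesis genes 15 rose and 1 fell, with a median of 1.14 (2 called with the t distribution). The fatty acid binding protein Fabp5, found in keratinocytes and sebocytes, was 3.76 ± 0.44 (adjusted p = 3.58e-14), and the desaturase Scd2 2.01 ± 0.36 (adjusted p = 4.38e-06) per the authors' deposited table. Dgat1, which makes triglycerides, was 1.51 ± 0.37 (adjusted p = 0.00125) and Cers4, a ceramide synthase of sebocytes, 2.67 ± 0.67 (adjusted p = 0.00152) per the authors' deposited table. The non-lesional medians, over the same unexposed libraries, were 0.59 for cholesterol and 0.05 for sebaceous genes. There Acat2, Idi1 and Msmo1 stood at 0.99, 0.88 and 0.71 in the authors' deposited table. Fabp5, Scd2, Dgat1 and Cers4 stood at 2.31, 0.65, 0.21 and 0.34. Of these genes Fabp5 (adjusted p = 7.31e-05) and Acat2 (adjusted p = 0.031) passed the DESeq2 test in non-lesional skin. Genes induced by the transcription factor NRF2 were split, with 8 of 26 higher and 5 lower (2 and 0 called with the t distribution). Akr1b8 and Nqo1 rose, at 2.09 ± 0.39 (adjusted p = 1.29e-05) and 1.98 ± 0.63 (adjusted p = 0.0149), and Gstm1, a glutathione transferase named after its value was seen, stood at -1.46 ± 0.48 (adjusted p = 0.0196) per the authors' deposited table.

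**Figure D4:**
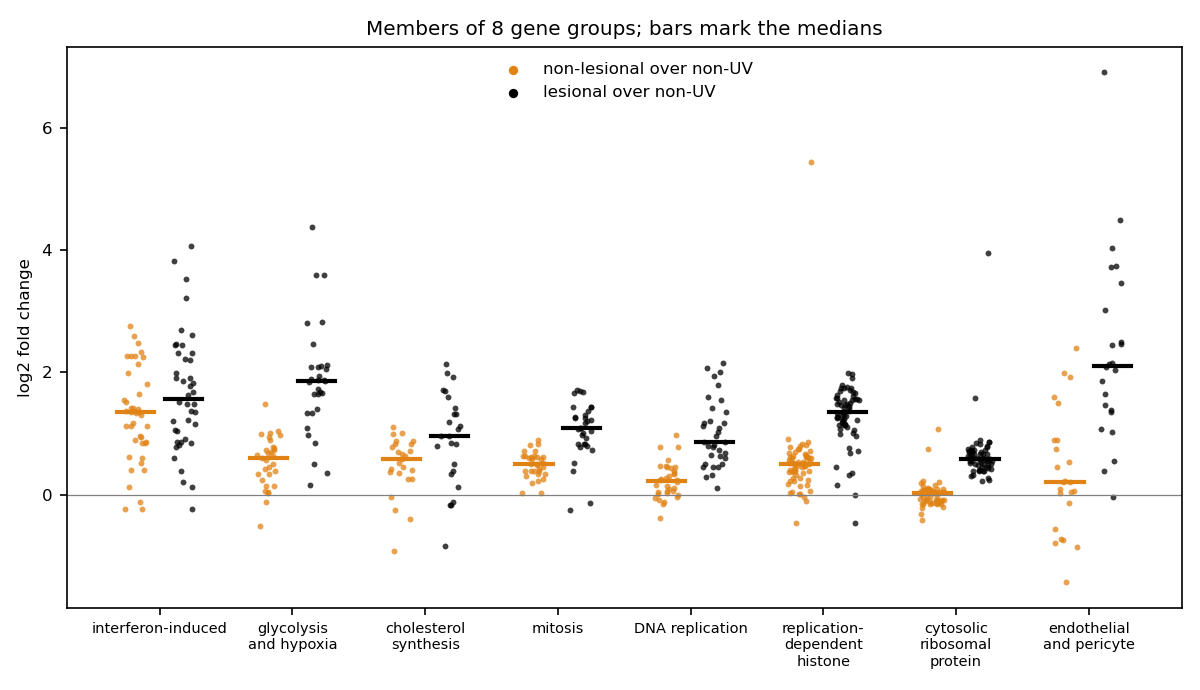
Points give the log2 fold change of each tested member of 8 gene groups in non-lesional (orange) and lesional (black) skin, both over the same non-UV-exposed libraries, with bars at the medians. Interferon-induced genes have medians of 1.35 and 1.57, whereas glycolysis and hypoxia genes have 0.60 and 1.87 and endothelial and pericyte genes 0.21 and 2.11.

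Among stromal genes, several matrix proteases and hyaluronan genes rose. Of 24 matrix proteases and inhibitors 10 rose and 1 fell (2 and 0 called with the t distribution), with a median of 1.66, against -0.29 in non-lesional skin. Among members tested in every table the lesional median was 0.78. The collagenase Mmp13 was 4.57 ± 1.17 (adjusted p = 0.00191) and Adamts1, which cuts proteoglycans, 3.05 ± 0.48 (adjusted p = 9.31e-08) per the authors' deposited table. Mmp13 stood at -1.87 in non-lesional skin in the authors' deposited table. Of 15 hyaluronan genes 5 rose (3 called with the t distribution): the synthase Has3 of keratinocytes was 4.90 ± 0.66 (adjusted p = 9.31e-11), Has2 2.26 ± 0.59 (adjusted p = 0.00246), the degrading protein Cemip 2.94 ± 0.47 (adjusted p = 1.53e-07) and the scavenger receptor Stab1 2.97 ± 0.39 (adjusted p = 3.31e-11) per the authors' deposited table. Has3, Has2, Cemip and Stab1 stood at 2.26, 1.04, 2.83 and 2.14 in non-lesional skin in the authors' deposited table. Tenascin C, Tnc, a matrix protein of wounds and tumour stroma, was 2.23 ± 0.26 (adjusted p = 1.16e-14) per the authors' deposited table. The fibrillar collagen genes Col1a1 and Col1a2 did not pass, with Col1a1 at 1.84 ± 0.90 (adjusted p = 0.141) and Col1a2 at 1.55 ± 0.95 (adjusted p = 0.259) per the authors' deposited table. Of 26 collagen genes 2 rose and 4 fell (1 and 1 called with the t distribution), with Col12a1 at 1.86 ± 0.38 (adjusted p = 5.93e-05) and the basement membrane chains Col4a5 and Col4a6 at -2.18 ± 0.48 (adjusted p = 0.000289) and -2.43 ± 0.64 (adjusted p = 0.00261) per the authors' deposited table. Bmp4, a growth factor of the dermal papilla, fell, at -3.15 ± 0.58 (adjusted p = 8.84e-06) there. Elastic fibre genes included the latent TGF-beta binding protein Ltbp1 at 3.56 ± 0.57 (adjusted p = 1.84e-07) per the authors' deposited table, with 2 of 20 higher, near the background.

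Several genes of the endothelial and pericyte list and 1 of blood rose. Of 24 endothelial and pericyte genes 7 rose, with a median of 2.11. The list holds the growth factor genes Vegfa and Pgf beside markers of vessel cells. Placental growth factor, Pgf, was 6.91 ± 1.63 (adjusted p = 0.000721) and the VEGF receptor Kdr 3.73 ± 1.13 (adjusted p = 0.0103) per the authors' deposited table. The t distribution called 1 member, Vegfa, which is also counted among the hypoxia genes. Pgf stood at 0.07 in non-lesional skin in the authors' deposited table. Of 6 red blood cell genes 1 rose, the haemoglobin gene Hba-a1, at 6.82 ± 1.49 (adjusted p = 0.000208) per the authors' deposited table. Values of that list ran from 1.60 to 6.82, and its median in non-lesional skin was -2.11. The share of blood in the samples was not measured.

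Genes of hair and of body position differed. Of 32 hair shaft and root sheath genes 9 fell (0 called with the t distribution), with a median of -2.38, against -1.70 in non-lesional skin. Krt36, a hair keratin, stood at -3.60 ± 1.05 (adjusted p = 0.00758) and Dsg4 at -3.35 ± 0.82 per the authors' deposited table. SKH1 mice lose their coat after the first hair cycle and keep follicle remnants and cysts. Of 7 HoxC genes 4 fell (1 called with the t distribution): Hoxc4 stood at -2.40 ± 0.47 (adjusted p = 3.36e-05), Hoxc8 at -1.80 ± 0.44 (adjusted p = 0.00105), Hoxc6 at -1.38 ± 0.44 (adjusted p = 0.0148) and Hoxc13, a regulator of hair keratins, at -1.08 ± 0.38 (adjusted p = 0.0318) per the authors' deposited table. The others tested, Hoxc10, Hoxc9 and Hoxc5, stood at 2.53, -0.07 and -0.83 in the authors' deposited table and did not pass. Of 17 HoxA and HoxB genes 4 rose (0 called with the t distribution), including Hoxb7 at 2.38 ± 0.55 (adjusted p = 0.000492) and Hoxa9 at 2.48 ± 0.70 (adjusted p = 0.00536) per the authors' deposited table. Of 11 HoxD and other position genes 1 rose, near the background, and 0 were called with the t distribution. This was the hindlimb factor Pitx1, at 5.89 ± 1.52 (adjusted p = 0.00207) per the authors' deposited table, and the lowest member stood at -5.68. In non-lesional skin Hoxb7 was 2.73 and Hoxc8 -1.11 per the authors' deposited table. These genes mark position along the body, and site and ultraviolet exposure cannot be told apart. Of 18 adipocyte genes 1 rose, Fabp4 at 2.54 ± 0.91 (adjusted p = 0.0335) per the authors' deposited table, and the t distribution called 0. The adipocyte median of -0.96 was -0.19 among members tested in every table. Melanocyte genes had 0 of 9 called by DESeq2 or with the t distribution and 0 at an unadjusted p under 0.05.

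Clock genes completed the lists with more lower than higher members. Of 19 tested 6 fell and 2 rose (1 and 0 called with the t distribution), with a median of -0.51. The output factor Hlf fell, at -1.80 ± 0.38 (adjusted p = 0.00013) and the repressor Nr1d1 at -1.33 ± 0.33 (adjusted p = 0.00128), and Nfil3 and Bhlhe40 rose, at 1.78 ± 0.43 (adjusted p = 0.00111) and 1.43 ± 0.38 (adjusted p = 0.00268) per the authors' deposited table. The hours at which samples were taken were not recorded in the labels.

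The largest single differences outside these groups named further genes. The guidance ligand Slit1 was 6.82 ± 0.92 (adjusted p = 9.47e-11) per the authors' deposited table, against 3.44 in non-lesional skin. Among the 10 lowest, Adamts14, a procollagen protease, stood at -3.78 ± 0.65 (adjusted p = 1.21e-06), Cyp2w1, a cytochrome P450, at -3.62 ± 0.73 (adjusted p = 5.35e-05), and Efemp1, an elastic fibre protein, at -3.61 ± 0.68 (adjusted p = 1.37e-05) per the authors' deposited table. Retnla, a resistin-like protein of type 2 immunity, stood at -3.56 ± 1.19 (adjusted p = 0.0221), Adh6a, an alcohol dehydrogenase, at -3.49 ± 0.75 (adjusted p = 0.000174) and the guidance ligand Sema3d at -3.31 ± 0.64 (adjusted p = 2.14e-05) per the authors' deposited table. Krt77 lies at chr15:101858731-101869705 on the minus strand, Slit1 at chr19:41600257-41743665 on the minus strand, and Chil4 at chr3:106201490-106219507 on the minus strand of GRCm38. Of the 55 gene lists, 44 had a median above 0.

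**Figure D5:**
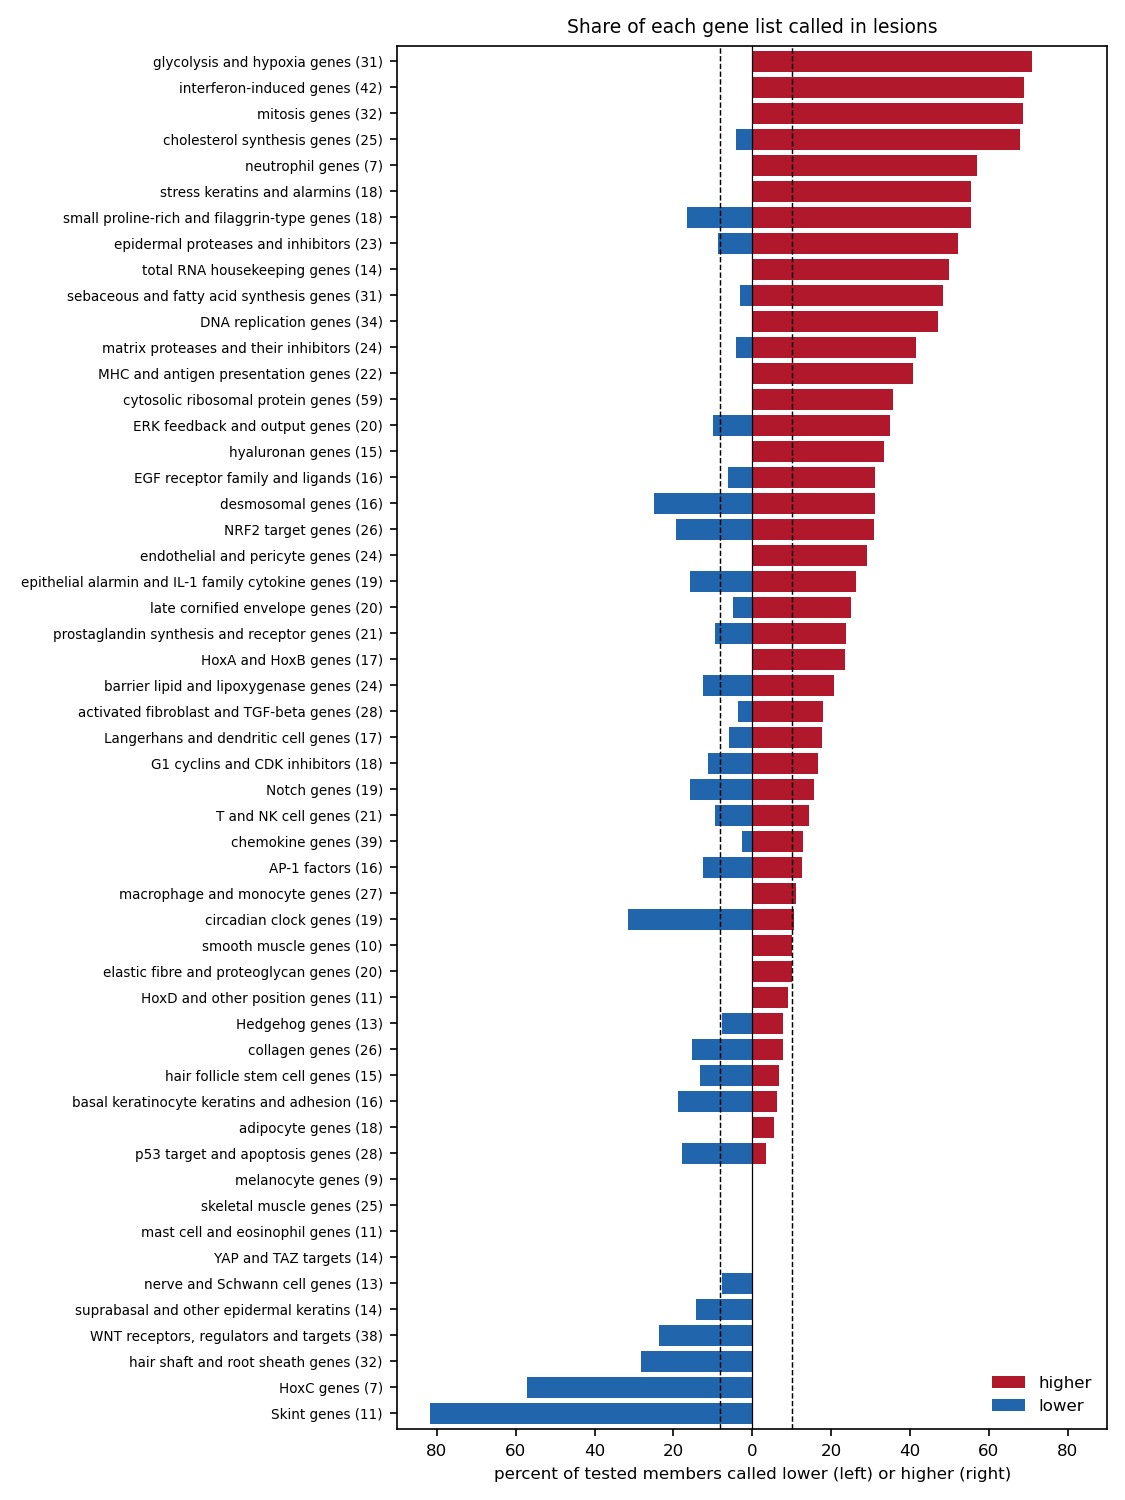
Bars give, for each gene list with its number of tested members in parentheses, the percent called lower (blue, to the left) and higher (red, to the right) in lesions; dashed lines mark the 8.17% and 10.2% of all genes. Glycolysis and hypoxia, interferon-induced, mitosis and cholesterol synthesis genes have the largest shares of higher members, and Skint and HoxC genes the largest shares of lower members.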

How the data were processed

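Skin RNA was extracted with an RNeasy kit and turned into TruSeq Stranded Total RNA libraries, per the labels' protocols. The submitters' processing notes name Trim Galore, the mouse build GRCm38 (mm10) and DESeq2, by which the authors made their tables. Aligner, counter, annotation, software versions and model formula: not given in the sources used here. Per the file headers, each table deposited holds a log2 fold change for each gene, a Wald statistic, which is a score equal to the fold change over its SE, and a p-value with its adjusted p-value. SEs were computed as the log2 fold change over that statistic. Counts were not analysed here, so depth is unknown. Genes with a fold change and no adjusted p (3627) were not tested. The table's file name names other groups than its header. A fold change of exactly 0 was taken to mark a gene without reads. Of 1423 such genes in the non-lesional against non-UV table, 704 were positive and 0 negative here, and of 1195 in the perilesional against non-lesional table, 271 were negative, so the header was followed. By elimination, back was read as non-UV-exposed.

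Members and lists were chosen with earlier results of these data known, and 17 further families after the values were seen. Lists are described by counts at an adjusted p (Benjamini-Hochberg) under 0.05 over all genes tested and by medians, with no test of the list. Genes named are, among called genes that every table tested, the 10 largest and 10 smallest fold changes with a proper symbol, up to 4 called members of each list by adjusted p, a set of fixed genes (some of these named genes are not reported here), and all tested members of the keratin, HoxC and EGF receptor lists. Genes named outside this rule were chosen after their values were seen, and besides those marked in the text they are Csta1, Krt17, Lce1h, Lce1k, Lce3e, Skint2, Skint4, Sprr2i and Sprr2h. A test of fold changes above 1 in size used the deposited values, with Benjamini-Hochberg adjustment over 15201 genes. Alternatives were a stricter threshold, t distributions (one added after the data were seen), a null estimated from the genes, centring on the median, no filter, genes tested in every table, identical genes counted once and, added after the data were seen, centring by transcript length. Of the genes tested, 14446 (95.0%) matched 1 gene of GENCODE M21 on GRCm38, which gave positions and lengths. Promoters from RefSeq (GRCm38.p6) matched 11249. Python 3.11.15, pandas 2.3.3, scipy 1.17.1 and matplotlib 3.10.9 were used, and the scripts were tested on simulated data.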

Additional observations from a re-analysis of the deposited data

How the results depend on the processing

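The count of 2785 called genes, 1543 higher and 1242 lower, was 1384 (758 and 626) at an adjusted p under 0.01, and 417 (245 and 172) with a t distribution of 10 degrees of freedom, which assumes a fit of all libraries together. With the 4 degrees of freedom of the 6 libraries alone, added after the data were seen, it was 0 (0 and 0), with 2389 genes at an unadjusted p under 0.05. With centre (0.22) and spread (1.92) of the Wald statistic taken from the genes it was 11 (10 and 1). Among these were 2610528A11Rik, Cxcl9, Fabp5, Krt16, Krt6a, Krt6b, Pi15, Rptn, Skint7 and Tnc, of which 2610528A11Rik and Pi15 were named after their values were seen. Centring on the median, no filter, genes tested in every table, identical genes counted once and centring by transcript length stayed within 1.5 times, at 2376 to 2850. The count of 80 genes beyond a log2 fold change of 1 was 14 beyond 2, and 0 beyond 1 with the t distribution. The deposited DESeq2 test, which asks for any difference and not for one beyond 1, gave 4769 genes an unadjusted p under 0.05. Of 198 named genes 106 lost the call with the t distribution of 10 degrees of freedom, 186 with that of 4 and 177 with centre and spread from the genes, and 0 of the called ones changed sign under these alternatives. No paired analysis was possible because the deposited tables hold no value per library. Leaving out a library was not possible for the same reason. Precision is limited by 3 libraries a group.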

Other observations

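Gene families defined by their symbols, and chosen after their values were seen, add groups that the lists above do not hold. Of 64 tested replication-dependent histone genes 51 rose, with a median of 1.35 and 13 called with the t distribution. Their messages lack a poly(A) tail, are made in S phase and are retained by a total RNA protocol. Their transcripts are short (median 555.5 bases), and centred by length the median was 0.96. Within the Hist1 clusters of chromosome 13, runs of 13, 11 and 8 adjacent tested genes all rose, and chromosome 13 without Hist genes had 9.86% of genes higher. A further run of 5 genes that rose and are neighbours among the genes tested, Palld to Msmo1, lies at chr8:61511433-64733792. Of 38 proteasome subunit genes 20 rose (1 called with the t distribution), with a median of 0.73 (0.45 centred by length), and Psmc5, an ATPase of the proteasome cap, was 0.92 ± 0.20 (adjusted p = 0.000208) per the authors' deposited table.

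Among 21 protocadherin beta genes, a cluster of cell-surface recognition proteins best known from neurons, 11 rose (0 called with the t distribution), with a median of 1.55, or 0.99 among members tested in every table, and Pcdhb16 was 1.37 ± 0.33 (adjusted p = 0.000907) per the authors' deposited table. Connexins, which form gap junctions, rose in 4 of 12 cases (2 called with the t distribution): Gjb2 was 4.69 ± 0.70 (adjusted p = 1.25e-08) and Gjb6 3.51 ± 0.76 (adjusted p = 0.000205) per the authors' deposited table. Of 8 Schlafen genes, several of them induced by interferon, 5 rose (0 called with the t distribution). Zinc finger genes with a Zfp symbol went the other way, with 56 of 337 lower and 5 higher (4 and 0 called with the t distribution) and a median of -0.33 (-0.37 centred by length). Of 40 ATP-binding cassette transporter genes 10 fell and 2 rose (3 and 0 called with the t distribution), with Abca4 at -2.87 ± 0.57 (adjusted p = 4.82e-05) per the authors' deposited table.

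Further genes stood among the smallest adjusted p values. 2610528A11Rik was 6.34 ± 0.63 (adjusted p = 2.99e-20), the peptidase inhibitor Pi15 4.38 ± 0.46 (adjusted p = 1.46e-17) and the carboxypeptidase Scpep1 3.26 ± 0.41 (adjusted p = 2.74e-12) per the authors' deposited table. In non-lesional skin over the same unexposed libraries they stood at 4.66, 2.73 and 2.21 per the authors' deposited table. Of 125 tested lincRNA genes 3 rose and 7 fell, and of 116 antisense genes 4 rose and 3 fell.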
